A study of Zea mays with 144 samples.

Results

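Of the 12160 features of a spotted cDNA array that measured developing anthers of maize, 126 fell from the tetrad to the early microspore stage and then stayed level to the mid-microspore stage. They were chosen by these measured values. On each slide the 3 scans were averaged and turned to later over earlier stage. A member had a mean log2 ratio of -1 or less over the 4 slides of tetrad against early microspore, stood below 0 on all 4, and had a mean between -0.5 and 0.5 over the 4 slides of early against mid-microspore. The genes PP2C18, PP2C24 and JAZ9 were left out by name. Of the members, 71 carried 1 annotated gene (66 genes in all), 5 carried several and 50 carried none, and 12 features of 10 genes had a gene name.

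All samples were anthers of the inbred line Ky21, with no treatment named, taken apart for the upper and the lower floret of a spikelet. The 6 stages, told by light microscopy, began with meiocyte, a mixed dyad/tetrad stage and tetrad, and went on through early microspore and mid-microspore to a mixed mid/late microspore stage. Every stage and floret had 2 RNA pools. A pool combined 1 to 4 individuals with 8 to 20 anthers per tassel, and its RNA was amplified with T7 RNA polymerase before labelling. The 24 pools fell into 2 sets by the number in their names, and 24 slides compared stages within a floret and set while 24 compared the florets at 1 stage. In the main fits the p-values therefore measure the spread between the 2 sets, in which differences of pools and of slides are joined. Stage slides that share a pool were fitted as independent, and this sharing was not allowed for. In every stage comparison the dyes were swapped between the sets, so a difference between sets cannot be told apart from one of dye.

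A maize anther holds meiocytes, which pass through meiosis to a tetrad of haploid cells, and the walls of the tetrad are then dissolved to release the microspores. Around them lie the tapetum, a layer that nourishes the microspores, and the outer wall layers of the anther. Release from the tetrad ends the meiotic phase, and the free microspores then develop into pollen grains. Because whole anthers were used, fewer cells of a type and less RNA per cell cannot be told apart.

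The values are ratios between pools, so no absolute level was measured, and a fall does not show that a transcript was absent afterwards. Dyes are given for every pool, but which dye is the numerator is not stated in the labels. Reading the ratio as Cy5 over Cy3 is likely, because 3 of the 4 listed features of meiosis genes were then lower at the mid/late microspore stage than at the meiocyte stage. These were rad51a (-1.84 on the log2 scale, adjusted p = 0.00225), ZYP1 (-1.46, adjusted p = 0.0079) and afd1 (-0.67, adjusted p = 0.0194). The other markers give no such sign: under this reading the profilin gene PRO1, listed as a pollen marker, fell (-0.88), the tapetum gene ms23 stood at 0.70 without passing, and photosynthesis genes of the wall went both ways. With the sign turned, every lower and higher given here exchanges. The base of the logs was read from the values, and each log2 ratio and fold depends on that reading.

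Between tetrads and early microspores the members had a median log2 ratio of -1.12, a 2.17-fold fall, with a range of means from -2.15 to -1.0. The slide medians were -1.29 in upper florets of set 1, -1.08 in upper florets of set 2, -1.15 in lower florets of set 1 and -0.95 in lower florets of set 2. The members stood low on all 4 slides, as the choice required, and the median of all 12160 features was 0.01. In the next step, to mid-microspores, their median was 0.12 and the 4 slide medians lay between 0.04 and 0.08. These values chose the members and carry no test. The median fall is 2.17-fold, so "switched off", the working name of these features, overstates what was measured for most of them.

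**Figure D1:**
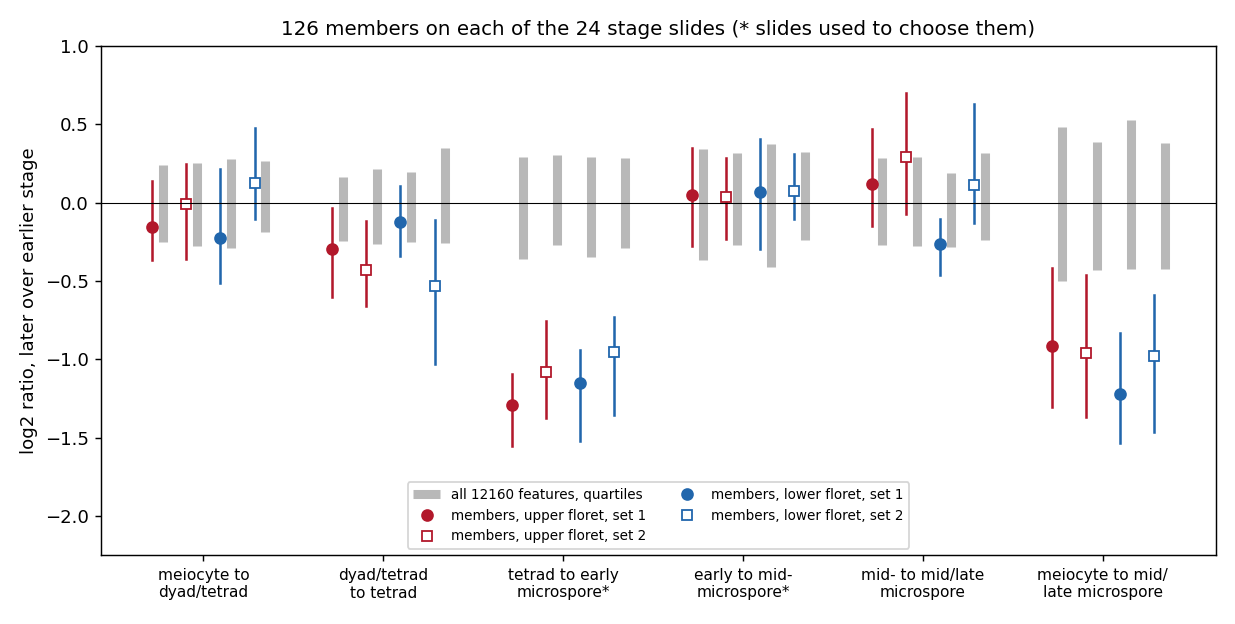
Log2 ratio of the later over the earlier stage (y axis) on each of the 24 stage slides, in 6 comparisons (x axis). Points are the median of the 126 members and thin lines their quartiles, by floret (colour) and set (filled circle or open square), and thick grey bars are the quartiles of all 12160 features. The members lie below the grey bars on all 4 slides of tetrad to early microspore, which chose them, and their medians lie between -1.22 and -0.91 on the 4 slides of meiocyte to mid/late microspore, which did not.

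The rule passed 282 features at the limit of the fall, 246 of them below 0 on all 4 slides and 127 of those level afterwards. PP2C24, with a fall of -1.47, was the 1 feature then left out by name. Just inside the limit of the fall were feature 4337 (-1.002) and feature 5125 (-1.005), and just outside it were feature 250 (-0.999) and feature 7995 (-0.998). At the upper limit of the level band, features 11826 (0.489) and 6449 (0.488) were in, while feature 1473 of the ribosomal protein gene rps28 (0.506) and feature 6024 (0.525) were out. At the lower limit, features 10387 (-0.482) and 8227 (-0.474) were in and features 11170 (-0.507) and 5686 (-0.507) were out.

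Membership also depended on the set. The sets differ in their pools and, on these slides, in which stage took which dye, and the part of each cannot be told apart. The rule applied to set 1 alone took 300 features, of which 51 (17%) stood at -1 or less in set 2, where 2.29% of all features did. Applied to set 2 alone it took 124 features, of which 57 (46%) stood at -1 or less in set 1, against 4.86% of all features. A fall chosen in 1 set was thus below 0 in the other for 243 of 300 and 111 of 124 features, where 47.8% and 51.2% of all features were. Its median size dropped from -1.20 to -0.65 and from -1.14 to -0.95. The fall was thus larger on the slides that chose a feature than on those that did not. From early to mid-microspores, 194 of the 300 features (64.7%) were level in set 2, where 72.9% of all features were. Of the 124 features, 71 (57.3%) were level in set 1, where 63.9% of all features were. Features chosen in 1 set were thus level in the other less often than all features, and this difference was not tested.

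Whether the members remain low at the end of the series was read from slides that pair meiocytes with mid/late microspores directly. These 4 slides share no RNA pool with the 8 that chose the members. The members had a median log2 ratio of -1.03 (2.04-fold lower at the mid/late microspore stage), with slide medians of -0.91 in upper florets of set 1, -0.96 in upper florets of set 2, -1.22 in lower florets of set 1 and -0.98 in lower florets of set 2. All 4 slides put the members low, while the median of all features was -0.01. Of the 126 members, 88 were called lower, where 17% of all features were, and 0 were called higher, where 17.4% were (limma, Benjamini-Hochberg adjusted p under 0.05 over all features). At an unadjusted p under 0.05 the counts were 100 lower and 0 higher, where 22.8% and 22.5% of all features were.

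Of the members, 97 stood below 0 on all 4 direct slides, as did 25.4% of all features, and 119 had a mean below 0. The 88 called members ranged from -3.21 to -0.52 with a median of -1.14. The 38 not called ranged from -1.57 to 0.31, and their median SE, 0.33, was above the 0.24 of the called members. Without the slide of the lower florets of set 1 the count was 51 in place of 88, and all features called lower fell from 17% to 9.38%. With all columns scaled to one spread it was 34, when 5.08% of all features were called lower.

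**Figure D2:**
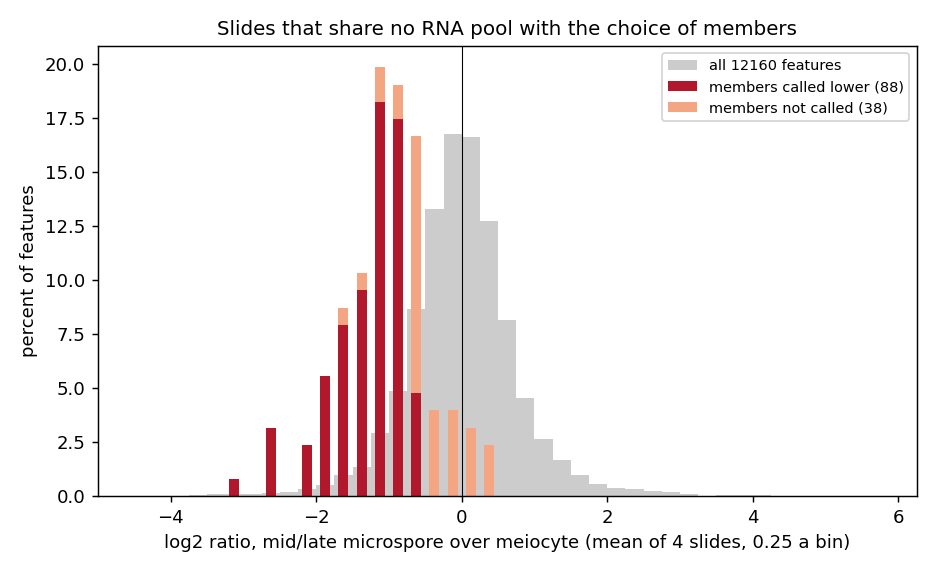
Distribution of the log2 ratio of mid/late microspores over meiocytes (x axis, mean of 4 slides) as a percent of features (y axis). Grey bars are all 12160 features, and narrow bars are the 126 members, dark where called lower (88) and light where not (38). The members centre at -1.03 and all features at -0.01.

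The 5 called members with the lowest mean over scans from meiocytes to mid/late microspores are given next, and the array annotation gives a gene for 2 of them. Their sizes rest on the low scans: these gave log2 ratios from -6.29 to -4.54, the medium scans from -1.88 to -1.08 and the high scans from -1.72 to -1.04. Feature 1938, without an annotated gene, had log2 ratios of -4.45 and -1.92 in upper florets of sets 1 and 2 and of -2.99 and -3.47 in lower florets (-3.21 ± 0.45, SE, n = 4 slides, adjusted p = 0.000623). By the median of its scans on each slide it stood at -1.79 (3.46-fold lower, adjusted p = 0.000327). From mid- to mid/late microspores it had -1.63, which was not called (adjusted p = 0.164). Feature 9757, also without a gene, had -4.20, -2.86, -2.0 and -1.94 in the same order (-2.75 ± 0.17, adjusted p = 6.66e-06, or -1.75 with the median of scans). Every slide was low for both features, and upper florets were lower than lower florets for 9757.

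Feature 10850 of LOC100383575 had log2 ratios of -1.31, -4.24, -2.15 and -3.23 on the direct slides (-2.73 ± 0.38, adjusted p = 0.00063, or -1.98 with the median of scans). Feature 7182, without a gene, had -1.02, -3.29, -3.03 and -3.14 (-2.62 ± 0.49, adjusted p = 0.00287, or -1.67 with the median of scans). Feature 3803 of LOC100279553 had -3.66, -3.39, -0.81 and -2.30 (-2.54 ± 0.24, adjusted p = 7.42e-05), but -1.11 with the median of scans, near the median of all members. The slides were all low but spread over more than 2 log2 units in each of these 3 features. Feature 7182 did not pass in the medium scan alone (-1.66, adjusted p = 0.0914). The SE comes from 1 fit of the 16 stage slides the rule did not use. It joins the spread between sets within a floret over 4 comparisons, and limma draws it toward that of other features. It is thus not the scatter of the 4 slides quoted: in feature 3803 their SD was 1.30. The spread between florets is left out.

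Both steps before the fall were compared on slides the rule did not use. From meiocytes to dyads and tetrads the members stayed near level, with a median of -0.06 and slide medians from -0.23 to 0.13. None was called lower, against 0.0164% of all features, and none higher, against 0.0% (5 and 3 at an unadjusted p under 0.05, where 3.89% and 3.79% of all features were). From dyads and tetrads to tetrads the median was -0.39, a 1.31-fold fall, with slide medians of -0.30, -0.43, -0.12 and -0.53 in upper florets of sets 1 and 2 and lower florets of sets 1 and 2. All 4 medians were below 0, and 109 members (86.5%) had a mean below 0, as did 53.3% of all features.

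No member passed the test in that step. The calls were 0 lower, against 0.0% of all features, and 0 higher, against 0.189%, while 29 members were lower at an unadjusted p under 0.05, as were 4.48% of all features. Of the members, 47 were below 0 on all 4 slides, where 9.66% of all features were. The widest fall, -1.49 in feature 1735 of LOC100272247, came with slide values of -1.39, -3.23, -1.12 and -0.22, and was -0.96 with the median of scans. These slides share the tetrad pools with the slides that chose the members, and a tetrad pool with a high value would raise this step and deepen the next one.

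After the fall, from mid- to mid/late microspores, the members had a median of 0.15 with slide medians of 0.12 and 0.29 in upper florets and -0.26 and 0.12 in lower florets. The lower florets of set 1 thus stood apart from the other 3 slides. No member was called lower, against 0.173% of all features (4 at an unadjusted p under 0.05, against 6.23%), and 1 was called higher, against 0.444%. It was feature 5678 of LOC100281180, which had log2 ratios of 1.99, 1.71, 2.05 and 1.19 and so rose on every slide (1.74 ± 0.19, n = 4 slides, adjusted p = 0.00693). The low scans gave 2.76, the medium 1.24 and the high 1.21. When either upper floret slide of this step was left out, no member was called. The slides share the mid-microspore pools with those that chose the members.

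Fitted around the loop of stages, 66 members were highest at the meiocyte stage, 48 at dyad/tetrad and 12 at tetrad. The lowest stage was early microspore for 81, mid-microspore for 26 and mid/late microspore for 19. The median member stood at 0.68, 0.69 and 0.36 in the 3 earlier stages and at -0.73, -0.53 and -0.39 in the 3 later ones, as log2 levels around the 6-stage mean. These profiles include the slides that chose the members and describe them without a test. The sum of the 5 steps between neighbouring stages had a median of -1.29 against -1.03 on the direct slides. Across the 126 members the sum and the direct value had r = 0.17. They lay within 0.5 of each other for 63 members and differed by more than 1 for 26.

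**Figure D3:**
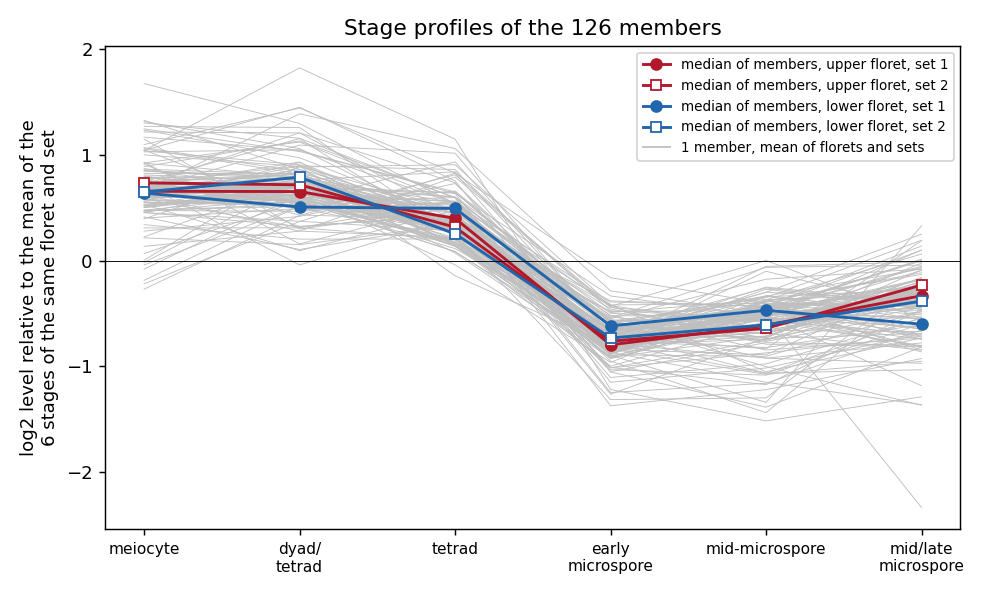
Log2 level of each of the 126 members (grey lines, mean over florets and sets) at the 6 stages (x axis), relative to the mean of the 6 stages of the same floret and set (y axis). Coloured lines are the medians of the members by floret and set. All 4 medians lie between 0.26 and 0.79 up to the tetrad stage and between -0.80 and -0.23 from the early microspore stage on.

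The named members are described by role, with slide values in the order of upper florets of sets 1 and 2 and lower florets of sets 1 and 2. Their falls to early microspores are a description, and only the direct slides of meiocytes against mid/late microspores carry a test. The gene hdz10 encodes a homeodomain-leucine zipper transcription factor, a class of plant regulators, and its feature 8468 had the largest mean fall of a named member. It had log2 ratios of -1.20, -3.29, -1.15 and -1.78 from tetrads to early microspores (mean -1.86, 3.62-fold). Set 2 was lower than set 1 in both florets. The low scans gave -3.52, the medium -1.09 and the high -0.96, so that the median of scans was -1.09, a 2.13-fold fall. From early to mid-microspores its mean was 0.06, with slides between -0.03 and 0.15. On the direct slides it had -1.01, -2.88, -1.10 and -2.17, again lower in set 2, and passed the test (-1.79 ± 0.28, SE, n = 4 slides, adjusted p = 0.0011). This size also rests on the low scans, at -3.35, and the median of scans was -1.01 (adjusted p = 0.00141). It was the only feature on the array with an hdz name in the annotation, so no second spot with such a name could be set beside it. Members of the family without an hdz name were not searched for.

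Of the 12 named features, 4 belong to rps28 and rps6-2, which encode proteins of the small ribosomal subunit. The rps28 feature 7283 had log2 ratios of -1.78, -1.17, -1.11 and -1.24 to early microspores, and rps28 feature 9037 had -1.64, -1.48, -1.15 and -0.33. The lower floret of set 2 was the highest slide for 9037 but not for 7283. On the direct slides 7283 had -0.38, -1.37, -0.95 and -1.22 (-0.98 ± 0.22, adjusted p = 0.00787), and 9037 had -0.52, -0.70, -1.07 and -0.95 (-0.81 ± 0.24, adjusted p = 0.0265). Both were below 0 on all 4 slides. The third rps28 feature, 1473, also fell (-1.09 ± 0.23, adjusted p = 0.00605 in the fit on all 24 stage slides) and missed membership because it stood at 0.51 in the next step.

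For rps6-2, feature 8122 had log2 ratios of -1.39, -0.84, -1.26 and -1.05 to early microspores and feature 540 had -1.39, -1.46, -0.89 and -0.72. Both were level in the next step, as the choice required. The direct slides gave -1.0, -0.45, -1.07 and -0.43 for 8122 (-0.74 ± 0.19, adjusted p = 0.0131) and -1.57, -0.20, -1.30 and -0.42 for 540 (-0.87 ± 0.25, adjusted p = 0.0221). In both features set 1 was lower than set 2 in both florets, and all slides were below 0. For these 4 ribosomal features every scan gave a mean between -1.41 and -1.06 for the fall and between -1.0 and -0.68 on the direct slides.

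Ribosomal protein genes exist as near-identical copies, and which copy a spot measured was not resolved here. The array held 23 features with a ribosomal protein name, of which 4 were members. Among the other 19, from tetrads to early microspores, 5 were called lower and 0 higher, where 8.53% and 6.58% of all features were, and their median was -0.30. From meiocytes to mid/late microspores 6 of the 19 were called lower and 2 higher, where 17% and 17.4% of all features were. The largest of these falls, -2.60, was in feature 8591 of rpl39, while feature 2384 of RPS27A had 1.33 and feature 10058 of rps12 had 0.62. Features with these names therefore did not all move one way. This list of names was drawn up after the members were known.

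A proton pump and a calcium sensor were also members. The gene vpp1, also listed as H+-PPase, encodes a vacuolar proton-pumping pyrophosphatase, which acidifies the vacuole. Its feature 6196 had log2 ratios of -1.43, -1.01, -0.93 and -1.06 to early microspores and -0.65, -1.25, -1.85 and -1.08 on the direct slides (-1.21 ± 0.17, adjusted p = 0.000549). All 8 values were below 0. On the direct slides the high scans gave -0.65 and the low and medium scans -1.49 and -1.48. The other vpp1 features, 3332 and 7018, also fell to early microspores (-0.99 ± 0.15, adjusted p = 0.000974, and -1.02 ± 0.20, adjusted p = 0.00371) but then stood at 0.84 and 0.81 in the step to mid-microspores, where 6196 stood at 0.16. On the direct slides they had -0.61 (adjusted p = 0.0137) and -0.26 (adjusted p = 0.197). Whether 6196 differs from its fellow features was not tested.

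CBL5 encodes a calcineurin B-like protein, a calcium sensor that acts through protein kinases. Its feature 8756 had log2 ratios of -1.55, -1.07, -1.19 and -0.31 to early microspores, with the lower floret of set 2 as the highest slide, and 0.29 in the next step. The direct slides gave -0.38, -0.27, -0.79 and -0.64, all below 0, and the change did not pass (-0.52 ± 0.19, adjusted p = 0.055). The other CBL5 features had -0.37 (feature 1500, slides from -2.09 to 0.72) and 0.06 (feature 1959) from tetrads to early microspores, and neither passed. Over the 12 features with a CBL name the median of that step was 0.02. From meiocytes to mid/late microspores none of the 12 was called lower, where 17% of all features were. CBL2-2 (feature 7686, 0.79, adjusted p = 0.00836) was called higher, where 17.4% of all features were.

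A pair of members carry names of storage or wall-type proteins. Feature 2633 is listed as z1A1_2 and zpl2b, names of an alpha-zein, a storage protein of the kernel encoded by a large family of similar genes, so the copy measured is uncertain. It had log2 ratios of -2.56, -0.98, -2.52 and -0.31 to early microspores, lower in set 1 than in set 2 in both florets, and -1.20 with the median of scans against a mean of -1.59. The step to mid-microspores averaged 0.21 with slides from -0.33 to 0.88. On the direct slides it had -0.42, -0.29, -1.60 and -0.14 and did not pass (-0.61 ± 0.40, adjusted p = 0.26). The other zein names on the array, features 710 and 2056, had 0.15 and -0.07 from tetrads to early microspores.

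The gene grp1 is named for a glycine-rich protein, a class that includes cell wall and RNA-binding proteins. Its feature 8447 had log2 ratios of -0.83, -0.48, -0.95 and -1.97 to early microspores and -0.03 in the next step. The high scans gave -0.44 for that fall and the low and medium scans -1.38 and -1.35. The direct slides gave 0.31, -0.72, -1.46 and -1.05, so the upper florets of set 1 went against the other 3, and the change did not pass (-0.73 ± 0.26, adjusted p = 0.0535). A second grp1 feature, 5512, fell to early microspores (-0.93 ± 0.22, adjusted p = 0.011). The third, 5848, ranged from -2.19 to 1.83 over the 4 slides, with both signs.

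The last 3 names were HIT2, SE1A and fdh. For HIT2, feature 1825 had log2 ratios of -2.16, -2.06, -0.65 and -0.17 to early microspores, lower in both upper florets than in both lower florets. Its mean of -1.26 was -0.77 with the median of scans, above the limit of the rule. Its step to mid-microspores averaged -0.28 over slides of -0.56, 1.55, -1.62 and -0.48, so it was not level on single slides. The direct slides gave -2.52, -1.33, -1.28 and -1.05, all low (-1.54 ± 0.27, adjusted p = 0.00201, or -1.20 with the median of scans). For SE1A, feature 6622 had -1.22, -0.68, -1.26 and -1.29 to early microspores and -0.11, -0.86, -1.09 and -0.51 on the direct slides, again all below 0 (-0.64 ± 0.17, adjusted p = 0.018).

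For fdh, also listed as fdh1, feature 10071 had -0.64, -0.85, -1.48 and -1.16 to early microspores, a mean of -1.03 that was -0.39 with the median of scans. On the direct slides it had -1.13, 0.27, -0.03 and -0.24, with both signs, and did not pass (-0.28 ± 0.41, adjusted p = 0.634). Its mean on the direct slides was the nearest to 0 of the 12. In all, 8 of the 12 named features were called lower from meiocytes to mid/late microspores, where 17% of all features were. They were those of hdz10, rps28, rps6-2, vpp1, HIT2 and SE1A. The features of hdz10, vpp1 and HIT2 were called in all 14 alternatives. The call was lost for both rps6-2 features and rps28 feature 9037 without the upper florets of set 1, for these 3 and SE1A without the lower florets of set 1, for SE1A and both rps28 features without the upper florets of set 2, and for rps6-2 feature 540 and rps28 feature 9037 without the lower florets of set 2. The adjusted p of these losses ranged from 0.0517 to 0.177. All 5 of these features also lost the call with scaled columns, and rps28 feature 9037 lost it in the low scan alone (adjusted p = 0.0542). The features of grp1 and CBL5, which missed the call, gained it with pool values from all 48 slides (adjusted p = 0.00753 and 0.00398). Those pool values include the slides that chose the members, so these 2 gained calls are not independent of the choice.

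**Figure D4:**
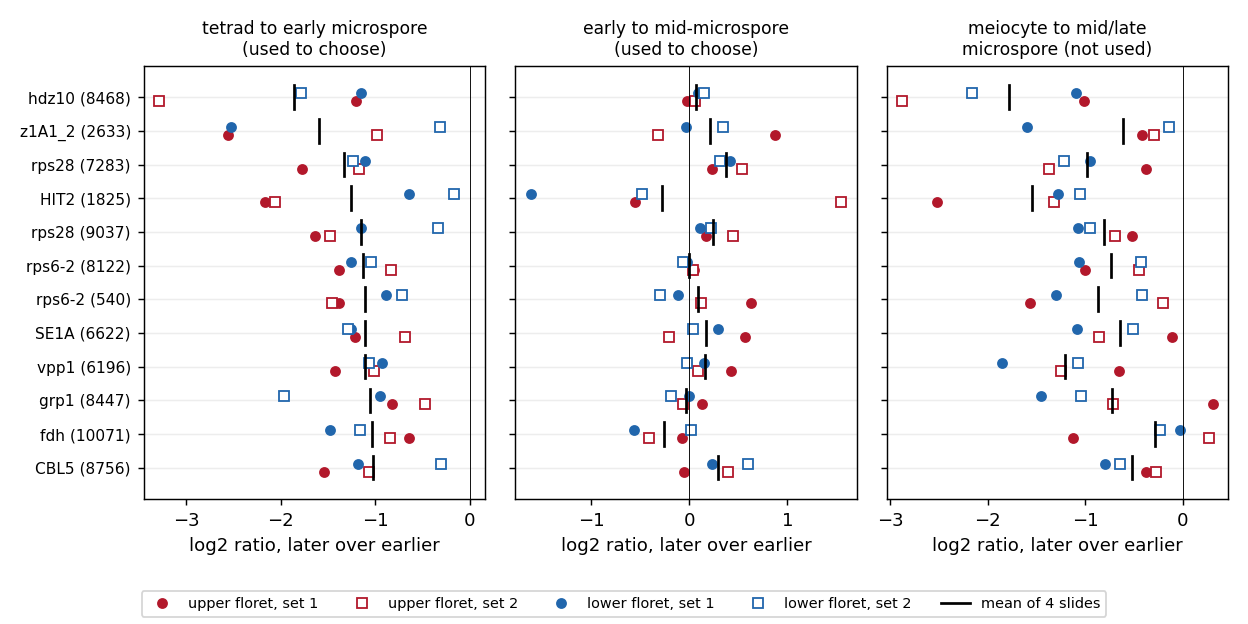
Log2 ratio of the later over the earlier stage (x axes) of the 12 named members (rows, feature number in brackets) on the 4 slides of 3 comparisons. Points are slides by floret (colour) and set (filled circle or open square), and black bars are their means. In the left panel every point is below 0, as the choice required, and in the right panel only grp1 and fdh have a slide above 0.

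Of the 66 genes, 5 had 2 member features and 23 had further features that were not members, 39 in all. These 39 are the spots that the rule, applied to the same slides, did not take, so their values are conditioned on it. From tetrads to early microspores 14 of the 39 were called lower, where 8.53% of all features were, and 4 were called higher, where 6.58% were (limma on all 24 stage slides, adjusted over all features). Their median was -0.42 and 3 stood at -1 or less. The count is not of independent genes, since LOC100280556 alone gave 6 of the 39 features.

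For LOC100280556 the 6 further features had log2 ratios from -0.71 to 0.38, 3 called lower and 1 higher. LOC100383575, whose member 10850 was among those with the largest falls (-1.96, -1.42, -1.66 and -2.10), had a further feature, 10632, at -0.02 (adjusted p = 0.937). LOC101027208, whose member is the neighbouring feature 10851, had a further feature, 4334, that was called lower, with -1.05, -0.87, -1.03 and -0.67 (-0.90 ± 0.11, adjusted p = 0.00013). Spots listed under 1 gene thus did not always move together.

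Some members carried neighbouring feature numbers. Of the 252 places beside a member, 18 (7.14%) held another member, where members make up 1.04% of all features. These 9 pairs and 3 pairs at a distance of 2 make 12 runs with 24 members. In 3 runs both members carried 1 annotated gene each, and these genes differed. In the others at least 1 member carried none or several, so whether they share a gene is not known. Over all features the log2 ratios of neighbouring numbers had r = 0.21 from tetrads to early microspores, between 0.16 and 0.25 on single slides, a description over 12160 features that share slides. The labels do not say what the numbers stand for on the slide, and the part of neighbourhood in the members' values was not tested. With 1 feature kept per run, 114 members remained.

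Upper and lower florets were compared directly on slides of the same pools. Averaged over the 6 stages, 28 members were called lower in upper florets, where 12.8% of all features were, and 4 were called higher, where 13.7% were. The median of the members was -0.13 on the log2 scale, upper over lower, with -0.21 in set 1 and -0.07 in set 2. The called differences were small, from -0.68 to -0.26 and from 0.30 to 0.68. The direction of these slides was taken from their values, and read by the dyes instead the counts were 2 lower and 9 higher (2.17% and 5.95% of all features). In set 1 alone 15 were lower and 6 higher (6.18% and 6.1% of all features), and in set 2 alone 0 were lower and 2 higher (0.888% and 0.798%). The fits of 1 set took the 6 stages as replicates. Their p-values measure the spread between stages within that set, a different test from that of the 28 and 4.

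The called members lowest in upper florets were features 11826 (-0.68 ± 0.13, adjusted p = 0.0082), 11151 (-0.65 ± 0.14, adjusted p = 0.0112), 3435 (-0.56 ± 0.09, adjusted p = 0.00467) and 6761 (-0.54 ± 0.15, adjusted p = 0.0294), which have no annotated gene, and 6449 of LOC100303896 (-0.50 ± 0.11, adjusted p = 0.0114). Those higher were 10850 of LOC100383575 (0.68 ± 0.10, adjusted p = 0.00343), 7450 (0.58 ± 0.17, adjusted p = 0.0332) and 7279 (0.40 ± 0.06, adjusted p = 0.00405) without a gene, and 10851 of LOC101027208 (0.30 ± 0.06, adjusted p = 0.0106). Features 10850 and 10851 are neighbours by number and were both higher. Of the named members, rps28 (feature 7283, -0.34, adjusted p = 0.037), rps6-2 (feature 8122, -0.26, adjusted p = 0.0369) and SE1A (feature 6622, -0.27, adjusted p = 0.0434) were lower in upper florets. A second member feature of rps28, 9037, stood at 0.01 and did not pass (adjusted p = 0.951). Nor did rps6-2 feature 540 (-0.15, adjusted p = 0.384).

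At single stages none of the 756 tests of members was called, where 0.0425% of all tests were (at an unadjusted p under 0.05, 94 of 756 against 13.9% of all tests). The stage medians of the members ran from -0.20, at the early microspore stage, to -0.01, at the mid/late microspore stage. The floret difference at early microspores minus that at tetrads was called for no member, against 0.0% of all features (at an unadjusted p under 0.05, 4 against 7.2%). The upper minus lower floret difference in the 4 comparisons not used by the rule was likewise called for no member, against 0.0% of all features in each. The unadjusted counts under 0.05 were 6 for meiocyte to mid/late microspore, where 3.82% of all features stood, 2 for meiocyte to dyad/tetrad (2.67%), 1 for dyad/tetrad to tetrad (2.53%) and 3 for mid- to mid/late microspore (2.79%), shares near or above those of the members.

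Markers of the cells in the anther were few on this array. From tetrads to early microspores, none of the 4 meiosis features was called (median -0.17, from -0.52 to 0.27), nor was the tapetum gene ms23 (0.29), nor the profilin gene PRO1 (-0.66). Of 7 features of photosynthesis genes, which mark green wall tissue, 1 was called lower and 1 higher, where 8.53% and 6.58% of all features were. From meiocytes to mid/late microspores the meiosis features had a median of -1.07, ms23 stood at 0.70 and PRO1 fell (-0.88, adjusted p = 0.0311). The fall of the meiosis features was itself used to read the direction of the ratio, so its sign is no separate result. The photosynthesis features were split over that interval, with 4 called higher and 2 lower, where 17.4% and 17% of all features were. None of these features was a member, and the part of a changing mix of cells in the members' values was not tested.

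The fall also varied with the scan. From tetrads to early microspores the median of the members was -1.23 in low scans, -1.10 in medium scans and -0.99 in high scans. In the low scans of these slides 6.57% to 13.1% of all features shared 1 value, and 93 of the 126 members stood at no scan's most frequent value on these slides. The choice of members moved with it: the rule took 158 features in the low scan alone (74 of them members), 125 in the medium (77), 61 in the high (49) and 98 with the median of scans (74). Without signals over background, dim members could not be set apart from bright ones.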

How the data were processed

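The deposited values are natural log (ln) ratios of the channels, 1 value per feature and scan in 144 scans of 48 slides, already centred by the authors near 0 (column medians between -0.025 and 0.033). The log base, not stated, was inferred from distances between repeated values in low scans. As natural logs, 61 of these equalled 2 logs of a whole number within 5e-06, as log2 19 did and as log10 8 did. Normalisation software was not given in the sources used here. Gene names came from the array annotation and the maize reference table.

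Scans were centred by their median, divided by the natural log of 2 and averaged over the 3 scans per slide. Tests used limma 3.58.1 (R 4.3.3): on the 16 stage slides the rule did not use (floret by comparison, and dye; 7 residual degrees of freedom), on all 24 stage slides for further features of member genes, and on 12 means of dye-swapped floret slides. P-values were adjusted over all 12160 features by Benjamini-Hochberg, and called means under 0.05. The fit was also run on simulated data with independent noise on each slide. That noise leaves out the pools that slides share, and no result here rests on it. Floret slides were used as deposited, read as upper over lower: stage steps and floret differences around 12 closed squares then had r across features from 0.27 to 0.48, against -0.05 to 0.09 when turned by dye.

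The members and lists were chosen with earlier results of these data known. Named are all members with a gene name, up to 5 members per direction with the largest called change in each tested comparison, 2 features on each side of each limit, and further features of named genes; other locus names were chosen after their values were seen. A part of the naming rule and a description of promoters that needed product names and sequences were not carried out. Alternatives were single scans, their median, scaled columns, other limits, other models, pool values from all 48 slides (MASS 7.3.60.0.1) and slides left out. Replicates are pools, and the number of arrays limits precision. Python 3.11.15 and matplotlib 3.10.9 were used.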

Additional observations from a re-analysis of the deposited data

Results flagged for a closer look

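Of 30 groups of 4 slides looked at for a slide far from the others (24 of named features, 6 of the members' medians), 1 stood out, and chance gives about 1 in 20. It was SE1A (feature 6622) from tetrads to early microspores, where the upper florets of set 2 stood at -0.68 and the other 3 slides between -1.29 and -1.22. These slides chose the member.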

How the results depend on the processing

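The number of members, 126, was 61 in the high scan alone (49 shared with the 126), 13 at a fall limit of -1.5, 298 at a limit of -0.8 and 83 at a level band of 0.3. It lay between 124 and 300 when 1 set was left out, and within 1.5 times under the other 6 alternatives. A like count did not mean the same features: of the 126, 74 were shared with the members by the low scan, 77 by the medium scan, 74 by the median of scans, 89 by scaled columns, 85 by set 1 alone and 57 by set 2 alone. Members called lower from meiocytes to mid/late microspores, 88, were 34 with columns scaled to one spread, between 51 and 68 when 1 slide was left out, 87 with the set as a replicate block, and within 1.5 times in all other settings. Their median change, -1.03, was -0.85 in the high scan alone and -0.68 with scaled columns. The medians of the other 3 comparisons moved by less than the spread between slides. With all 24 stage slides in the fit 1 member was called from dyad/tetrad to tetrad in place of 0 and 2 from mid- to mid/late microspore in place of 1, which was also 2 with pool values from 48 slides and between 0 and 1 when 1 slide was left out. The settings with all 24 and all 48 slides include the slides that chose the members. Members lower in upper florets, 28, were 18 in the low scan alone, 17 in the high scan alone, 2 with floret slides turned by dye, and between 0 and 15 when 1 set was left out. Those higher, 4, were 9 when turned by dye and between 2 and 6 without 1 set. The floret fits without 1 set took the 6 stages as replicates. For the 12 named features on the direct slides, 18 of 166 alternative values were no longer called and 8 became so. That of fdh turned its sign to 0.26 in the high scan alone, 0.025 with the median of scans, and lay between -0.697 and 0.135 when 1 slide was left out. Keeping 1 feature per run of neighbours (114 members) was chosen after seeing the data. The cause of these changes was not tested. No detection call was used, so what dim signal limits is not known here.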

Other observations

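The array held fewer features with the opposite course. With the signs turned, 255 features passed the limit from tetrads to early microspores, 218 stood above 0 on all 4 slides and 46 were then level, against 127 that fell and were level. Of these 46, 21 were called higher and 0 lower from meiocytes to mid/late microspores, where 17.4% and 17% of all features were. Their median was 0.68.

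Features that fell alike but were not level afterwards are set beside the members as values. From meiocytes to mid/late microspores, 48 of the 63 that fell further were called lower and 2 higher (median -1.84), and 24 of the 56 that rose again were called lower and 2 higher (median -0.74), against 88 and 0 of the 126 members (median -1.03). Of all features, 17% were called lower and 17.4% higher. From dyad/tetrad to tetrad the medians of the 3 sets of features were -0.35, -0.42 and -0.39.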
